A study of Mus musculus with 6 samples.

Results

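Of the 11106 merged H3K56ac peaks deposited for mouse embryonic stem cells (mESCs), 3520 (31.7%) lay at a CpG-rich promoter of a single protein-coding gene. H3K56ac is acetylation of lysine 56 of histone H3, read here by chromatin immunoprecipitation and sequencing (ChIP-seq). The peaks were chosen by 3 criteria. They were over 320 and under 3000 bp wide, their midpoint lay within 1 kb of the 5′ end of exactly 1 protein-coding gene record, and the CpG ratio around that 5′ end was above 0.6. The CpG ratio is the number of CpG dinucleotides observed, divided by the number that the C and G content would give, over 500 bp on either side. Width, distance from the 5′ end and CpG ratio are therefore given as descriptions with no test of their own. The side of the 5′ end on which a midpoint lay was not used by the criteria. The 3520 peaks belonged to 3514 genes, since 6 genes carried a pair of them.

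The cells were V6.5 mESCs grown undifferentiated on feeder cells and infected with lentivirus carrying an shRNA, either a scrambled sequence (Scramble) or one against *Sirt6* (*Sirt6* KD), a histone deacetylase gene. There were 2 H3K56ac libraries and 1 input library per shRNA, 6 libraries in all. The peak set pooled these libraries and held positions only, with no height or read count per library, so Scramble and *Sirt6* KD could not be compared and a peak may stem from either. The study lists more peaks for each *Sirt6* KD library than for each Scramble library, and reports a global increase after knockdown. The merged set may therefore rest more on the *Sirt6* KD libraries, which positions alone cannot show. The study gives read totals for each library, but the merged positions do not show how many reads stand behind a peak. Peaks and genes are not replicates of a condition, and the intervals below cover counting error only. No pair of peaks lay closer than 1000 bp, so marked stretches with a shorter gap may stand as 1 entry.

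Most mammalian promoters of broadly used genes lie in CpG islands, stretches where CpG dinucleotides have escaped loss and usually carry no DNA methylation. Transcription at such promoters often starts at several positions, and the start sites tend to lie in a nucleosome-depleted gap flanked by positioned nucleosomes. Lysine 56 sits where DNA enters and leaves the nucleosome, and its acetylation is known from newly assembled and from active chromatin. CpG islands also cover many developmental genes that Polycomb proteins hold silent in embryonic stem cells.

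The 100 bases upstream of the 5′ end are printed for 3 genes that span the range of CpG ratios, with each CpG in capitals. They were taken on the gene's strand from RefSeq's GRCm38.p6 sequence (the assembly behind mm10), at promoters where no annotated exon overlaps these bases. *Cblb*, a ubiquitin ligase gene with a CpG ratio of 0.601, holds 1 CpG there. *Atg4c*, which encodes an autophagy protease, lies near the middle with a ratio of 0.785 and holds 4. *Foxk2*, a forkhead factor gene with the highest ratio of all members, 1.17, holds 19.
*Cblb*, chr16:52031125-52031224, + strand: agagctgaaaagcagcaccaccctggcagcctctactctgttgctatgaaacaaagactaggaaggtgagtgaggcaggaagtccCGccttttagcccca
*Atg4c*, chr4:99193834-99193933, + strand: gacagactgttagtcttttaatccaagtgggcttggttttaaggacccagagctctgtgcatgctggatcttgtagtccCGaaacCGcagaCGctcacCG
*Foxk2*, chr11:121259890-121259989, + strand: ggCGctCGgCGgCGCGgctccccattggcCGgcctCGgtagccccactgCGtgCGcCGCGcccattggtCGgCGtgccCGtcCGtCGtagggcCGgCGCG

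A second set shows the promoter motifs compared further on, 1 gene each, with the motif in capitals. Each gene is the one with the motif in its upstream 100 bases whose peak midpoint lay nearest to the 5′ end. *Tbc1d2*, a GTPase-activating protein gene, shows the ETS motif, bound by the ETS family. *Cplane1*, a gene of cilium formation, shows the motif of nuclear respiratory factor 1 (NRF1), read on the other strand. *Kif13a*, a kinesin gene, shows the YY1 motif. *Pinx1*, which encodes a telomerase inhibitor, shows the cAMP response element (CRE), and *Gpatch3* shows TCTCGCGA, the site of BANP. At *Gpatch3* the motif occurs on both strands in overlap.
*Tbc1d2*, chr4:46650210-46650309, - strand: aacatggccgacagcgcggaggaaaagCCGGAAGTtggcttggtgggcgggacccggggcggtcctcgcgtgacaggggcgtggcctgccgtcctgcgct
*Cplane1*, chr15:8169006-8169105, + strand: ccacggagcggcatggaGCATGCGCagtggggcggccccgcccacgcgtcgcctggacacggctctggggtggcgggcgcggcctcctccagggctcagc
*Kif13a*, chr13:46929868-46929967, - strand: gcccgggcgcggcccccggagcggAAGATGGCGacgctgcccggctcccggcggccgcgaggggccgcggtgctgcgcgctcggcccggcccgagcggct
*Pinx1*, chr14:63860264-63860363, + strand: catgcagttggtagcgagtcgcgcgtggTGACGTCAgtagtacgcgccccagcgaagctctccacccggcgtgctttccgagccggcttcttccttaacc
*Gpatch3*, chr4:133574645-133574744, + strand: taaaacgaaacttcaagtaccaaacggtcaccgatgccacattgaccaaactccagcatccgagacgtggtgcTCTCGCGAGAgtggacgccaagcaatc

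The member peaks had a median width of 1117 bp, with quartiles of 712 and 1851 bp. The narrowest belonged to *Tbpl1*, a TBP-related factor gene, and *Rassf3*, and the widest to *Krcc1*, each 1 bp inside a limit. *Rpp25*, a subunit of RNase P, and *Rrm2*, a subunit of ribonucleotide reductase, followed at 2998 bp each. The nearest peaks outside the limits were those of *Jund* (320 bp) and *Zfp704* (3002 bp). *Socs5* was the farthest member, its midpoint 1000 bp upstream, while the midpoint at *Tmem115* lay 1000.5 bp away and was left out. By CpG ratio, *Myg1* was the lowest inside at 0.6003 and *Cwc25* the highest outside at 0.5997.

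The midpoints lay mostly on the transcribed side of the 5′ end. In a gene record the 5′ end is the most upstream annotated start, so other starts of the gene can only lie downstream of it. From the nearest annotated start, with the rule applied anew, 67.2% of 4125 midpoints were downstream. The values below use the gene record. Measured in the direction of transcription, the median offset was 314 bp downstream (mean 237 ± 449 bp, SD over 3520 peaks). Of the 3520 midpoints, 2559 (72.7%, 95% Wilson interval 71.2 to 74.1) were downstream, 1139 of all midpoints in an exon and 1414 in an intron of the gene. Upstream of the gene lay 961 (27.3%), and 6 lay past the 3′ end of a short gene. The share on the downstream side was 72.4% for genes on the plus strand and 73.0% for those on the minus strand (difference −0.604 percentage points, interval −3.54 to 2.34; Fisher's exact test, two-sided, p = 0.705, adjusted p = 0.705 over the 15 tests made). By distance, which the rule limits to 1 kb, 420 midpoints (11.9%) lay within 100 bp of the 5′ end, 1010 (28.7%) within 250 bp and 2093 (59.5%) within 500 bp. At CpG-poor promoters the shares were 9.31%, 27.2% and 64.4%.

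**Figure D1:**
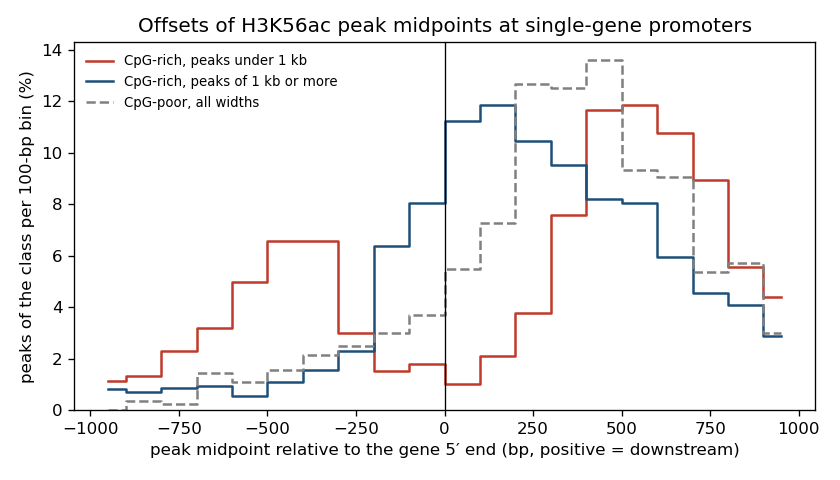
Percentage of peaks per 100-bp bin of midpoint offset from the gene 5′ end, in the direction of transcription, for members under 1 kb (red, n = 1569), members of 1 kb or more (blue, n = 1951) and peaks of the same width limits at CpG-poor promoters (dashed grey, n = 838). The red line has a hump on either side of the 5′ end and its lowest bin, 16 peaks, from 0 to 100 bp, where the blue line holds 219 peaks.

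Peaks under 1 kb mostly lay beside the 5′ end, and those of 1 kb or more were centred near it in a larger share, though most of them also lay downstream. Of the 1569 members under 1 kb, 1012 (64.5%) had their midpoint more than 200 bp downstream, 456 (29.1%) more than 200 bp upstream, and 101 (6.44%) within 200 bp. The downstream group had a median offset of 571 bp and the upstream group one of −471 bp. The bins from 500 to 400 and from 400 to 300 bp upstream each held 103 of these peaks, against 28 in the last 100 bp before the 5′ end. Of the 1951 wider members, 732 (37.5%) lay within 200 bp, 1047 (53.7%) more than 200 bp downstream and 172 (8.82%) more than 200 bp upstream. A midpoint rather than an edge defines this measure, so the width limits did not keep a narrow peak from the 5′ end. The smallest gap of 1000 bp between peaks does bear on the contrast. Stretches on either side of a 5′ end with a shorter gap may stand as 1 wider entry centred near it. How far this shaped the positions was not tested. At CpG-poor promoters, 61 of 450 peaks under 1 kb (13.6%) lay within 200 bp and 51 (11.3%) more than 200 bp upstream. Measured from the nearest annotated transcript start of any kind, with the rule applied anew, 258 of 1863 peaks under 1 kb (13.8%) lay within 200 bp, 523 (28.1%) upstream of that and 1082 (58.1%) downstream.

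The 5′ end itself was covered by 1935 members (55.0%). Another 1131 (32.1%) lay wholly downstream, with a median gap of 242 bp between 5′ end and peak edge, and 454 (12.9%) lay wholly upstream, with a median gap of 177 bp. Covering peaks had a median width of 1768 bp, against 755 bp for the downstream and 633 bp for the upstream ones. The share that covered the 5′ end rose with width from 8.70% under 500 bp and 20.5% at 500 to 999 bp to 93.7% at 1500 to 1999 bp. From 2000 bp on, the rule leaves no other possibility. Below that, a wider peak within the distance limit is also more likely to cover the 5′ end. The rise and the median widths are thus partly set by the rule and are given as descriptions. Of the wholly downstream peaks, 364 (32.2%) held another annotated start of the gene, so 1221 members (34.7%) held no start of their gene at all.

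*Cul3*, *Rybp*, *Cecr2*, *Smg1*, *Sept7* and *Hist1h2bm* each carried 1 member on either side of a bare 5′ end, an arrangement that the distance limit and the minimum gap leave as the only one for a pair. *Cul3* encodes a ubiquitin ligase scaffold and *Rybp* a Polycomb-associated protein. At *Cul3* the upstream peak (chr1:80341170-80341661) was 492 bp wide and the downstream one (chr1:80339032-80340001) 970 bp, with midpoints at −935.5 and 963.5 bp. At *Rybp* the widths were 928 and 375 bp and the midpoints −915.5 and 949 bp. Pairs with a gap under 1000 bp do not occur in the file.

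Summed over all members, coverage had a shoulder upstream and a maximum downstream. It rose to 49.7% of the peaks at 500 bp upstream and 53.1% at 250 bp upstream, stood at 51.6% at 100 bp upstream, and climbed to its maximum of 77.2% at 482 bp downstream. At 1000 bp the values were 16.4% upstream and 48.7% downstream. The CpG-poor promoters had a single hump, with 26.0% at 500 bp upstream, 61.9% at the 5′ end and a maximum of 84.0% at 405 bp downstream. The CpG content of the member promoters followed another course. It was highest, 10.6 CpG per 100 bp, in the first 100 bp downstream, and had fallen to 5.48 at 500 to 600 bp downstream and 2.24 at 600 to 500 bp upstream.

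**Figure D2:**
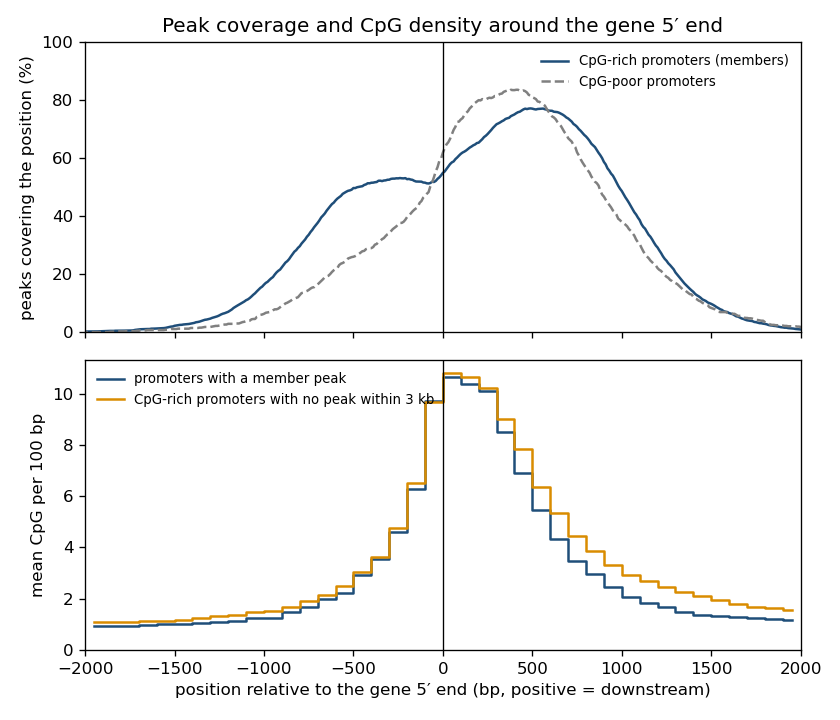
Top, percentage of peaks that cover each position from 2000 bp upstream to 2000 bp downstream of the gene 5′ end, for 3520 members (blue) and 838 peaks at CpG-poor promoters (dashed grey). Bottom, mean number of CpG per 100 bp at promoters with a member (blue) and at CpG-rich promoters with no peak within 3 kb (orange). Coverage by members is greatest at 482 bp, while CpG is densest in the first 100 bp past the 5′ end in both promoter sets.

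The CpG ratio over 500 bp on either side of the midpoint had a median of 0.711. The rule sets no direct limit on it. Yet the midpoint lies within 1 kb, so this window overlaps the one around the 5′ end, more so the nearer the midpoint. The shares below are thus partly set by the rule and are given as a description. At the 5′ end, where the rule requires a ratio above 0.6, the median was 0.788, so the medians are not set against each other. At the midpoint the ratio was above 0.6 in 2781 members (79.0%, interval 77.6 to 80.3), and in 983 of the 1010 whose midpoint lay within 250 bp of the 5′ end (97.3%). Where the midpoint was over 250 bp upstream, the ratio there was above 0.6 in 379 of 582 peaks (65.1%); over 250 bp downstream, in 1419 of 1928 (73.6%).

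The median position showed no steady trend with the first exon, while the spread of offsets was larger where that exon was long. Among genes with more than 1 exon, the 839 peaks with the shortest first exons (24 to 134 bp) had a median offset of 305 bp, and the 855 with the longest (329 to 3539 bp) one of 264.5 bp. The SD of the offset was 399 bp in the former and 515 bp in the latter, and 74.9% and 67.1% were downstream. The quartiles between had medians of 307.5 and 365 bp. For the shortest and longest first exons, the downstream edges compare as follows. The downstream edge lay past the end of the first exon in 90.1% of peaks with the shortest and 69.7% of those with the longest. Its median distance from the 5′ end was 946 and 1014 bp. Across 3413 peaks, Spearman's rho between first exon length and offset was −0.0188. Between CpG ratio and offset it was −0.0938 over 3520 peaks, which share annotation and base composition with their neighbours in the genome.

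Compared with peaks of the same width limits at CpG-poor single-gene promoters, the members were less often downstream by the gene record: 72.7% of 3520 against 84.0% of 838 (difference −11.3 percentage points, interval −14.1 to −8.30; Fisher's exact test, two-sided, adjusted p = 1.36e-11). The direction turned when offsets were taken from the nearest annotated start of any transcript, where both shares were 67.2% (difference 0.0819 points; same exact test, p = 0.973). Among genes with 1 annotated start, the shares were 74.1% of 278 and 81.6% of 87 (exact test, p = 0.196). The difference therefore depends on which start is used. Within the members the downstream share went from 81.5% at CpG ratios of 0.6 to 0.7 to 53.4% above 1.0, by the gene record.

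Annotated starts were many at these promoters. A peak held 2 or more starts of its gene in 1749 cases (49.7%). Of the 1427 members more than 500 bp off, 950 (66.6%) had another start of the gene nearer to the midpoint. Of the members of 1 kb or more, 76.8% were downstream, and of the narrower ones 67.6%. From the nearest start, the shares differed by 1.58 points. No test is given, since width chose the members.

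A divergent non-coding gene, one that starts within 1 kb upstream on the other strand, was annotated at 314 members (8.92%), and in 281 of these it was a long non-coding RNA. Its start lay inside the peak in 195 cases (62.1%). Members with such a start were downstream in 60.2% of cases, against 73.9% of the 3206 others (difference −13.7 points, interval −19.4 to −8.25; Fisher's exact test, two-sided, adjusted p = 8.96e-07). From the nearest start of the coding gene the difference was again −13.7 points. Among genes with 1 annotated start it was −2.89 points over 21 and 257 peaks (exact test, p = 0.797). Divergent starts were annotated at 57 of the 454 wholly upstream peaks (12.6%) and at 65 of the 1131 wholly downstream ones (5.75%). *Fzd10*, a Wnt receptor gene, had such a divergent start, yet its 1342-bp peak had a midpoint 998.5 bp downstream.

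A neighbouring peak within 10 kb was less frequent at members than at CpG-poor promoters, 21.9% against 31.1% (difference −9.21 points, interval −12.7 to −5.87; Fisher's exact test, two-sided, adjusted p = 1.03e-07). With 1 annotated start per gene the difference was −2.91 points (exact test, p = 0.586). The nearest such neighbour lay on the transcribed side in 369 of 772 cases (47.8%).

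The genes were then counted against all CpG-rich promoters that could have carried a member. Of 21938 protein-coding genes, 10078 had a CpG ratio above 0.6, and 7765 of these had no other protein-coding 5′ end within 2 kb (called eligible below). A member lay at 3411 of the eligible genes, 43.9% (interval 42.8 to 45.0). Of the others, 243 had only a wider peak, 103 only a narrower one, 517 a peak base within 3 kb but no midpoint within 1 kb, and 3491 no peak base within 3 kb. The remaining 103 member genes had another 5′ end within 2 kb. By CpG ratio the share was 39.3% at 0.6 to 0.7, 47.1% at 0.9 to 1.0 and 40.2% above 1.0. By chromosome it ranged from 37.7% on chromosome 12 to 51.0% on chromosome 11 among autosomes, and was 26.6% on X (58 of 218 genes).

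Families of genes were formed from symbols, 45 in all with 1396 eligible genes, and are described by their counts beside the 43.9% of all eligible genes, with no test. In 29 families the share was above that value, among them the sirtuins with only 1 eligible gene. From the ribosomal, proteasome and channel families, symbols of another function were dropped after counts were seen. A gene without a member may still carry a wider or more distant peak, which is given where it matters.

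**Figure D3:**
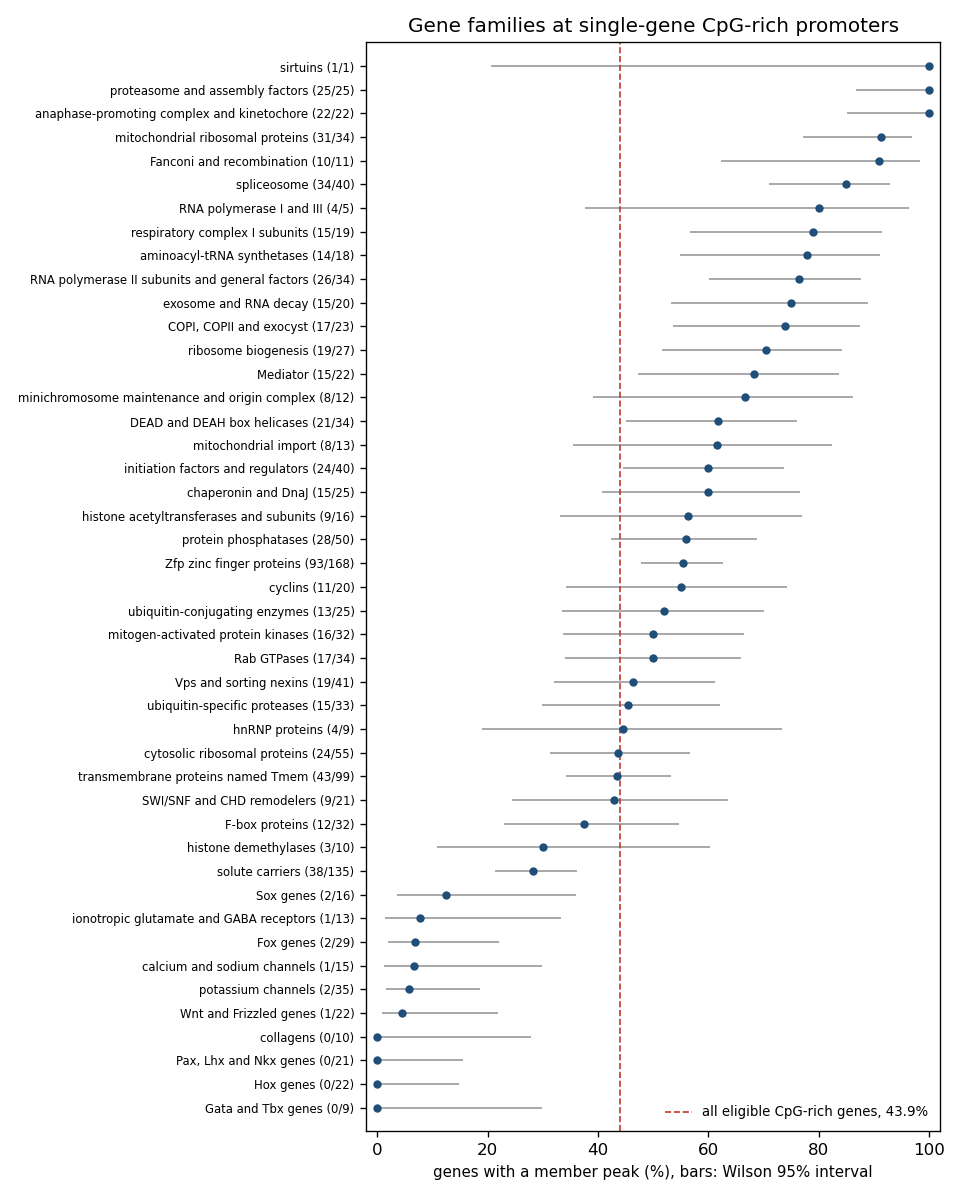
Percentage of eligible CpG-rich genes with a member peak in each of 45 gene families, with the number of genes beside each name, 95% Wilson intervals as bars and the 43.9% of all eligible genes as a dashed line. Proteasome and anaphase-promoting complex genes are at 100%, as are the sirtuins with 1 eligible gene. Hox, Pax, Lhx, Nkx, Gata, Tbx and collagen genes are at 0. The ribosomal, proteasome and channel lists were trimmed by gene function after counts were seen.

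Genes of protein degradation and of chromosome segregation carried members without exception in 2 families as listed. The proteasome list was trimmed by gene function after counts were seen, so its share was not fixed beforehand. All 25 eligible genes of the proteasome, the protease that degrades ubiquitin-tagged proteins, and of its assembly factors had one, as did all 22 of the anaphase-promoting complex and the kinetochore. The proteasome peaks had a median width of 1372 bp and a median offset of 390.5 bp, and 24 of 25 were downstream. *Psme4*, a proteasome activator, had the widest, 2239 bp with its midpoint at 537 bp, and *Psmb5*, a catalytic subunit, the single upstream midpoint at −110 bp. In the segregation family the widest was at *Cdc20*, the activator of the anaphase-promoting complex, 2633 bp at chr4:118435881-118438513 with its midpoint 155 bp downstream. *Ndc80*, a kinetochore gene, was the sole one of the 22 on the upstream side, at −57.5 bp. Other protein turnover genes were nearer to the share of all eligible genes, with 13 of 25 ubiquitin-conjugating enzymes, 15 of 33 ubiquitin-specific proteases and 12 of 32 F-box proteins.

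Genes for DNA replication and repair stood at 8 of 12 for the minichromosome maintenance and origin complexes and 10 of 11 for Fanconi and recombination factors. *Mcm5*, a subunit of the replicative helicase, had a 2450-bp peak with its midpoint at 198.5 bp. *Brca2*, the recombination mediator, had one of 1578 bp at 82.5 bp. *Fanca* had a narrow peak of 659 bp at 335 bp. Of the 4 replication genes without a member, 1 had only a wider peak and 3 a peak base within 3 kb, so none was without a peak. Cyclins had members at 11 of 20 genes, the widest at *Ccnl1*.

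Genes that make and process RNA mostly carried members. RNA polymerase II subunits and general factors had them at 26 of 34 genes, Mediator at 15 of 22, the spliceosome at 34 of 40, and exosome and decay factors at 15 of 20. *Polr2a*, the largest subunit of RNA polymerase II, had a 2748-bp peak at chr11:69757135-69759882 with its midpoint 128.5 bp downstream. *Srsf4*, a splicing regulator, had one of 2912 bp at 97.5 bp, and *Xrn2*, the nuclear 5′-to-3′ exonuclease, one of 2635 bp at 63 bp. The hnRNP family was at 4 of 9, but the other 5 genes had a wider peak (2) or a peak base within 3 kb (3). *Hnrnpab* had the widest hnRNP member, 2975 bp.

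Mitochondrial and cytosolic ribosomes are encoded by separate sets of genes. Mitochondrial ribosomal proteins had members at 31 of 34 eligible genes (91.2%, interval 77.0 to 97.0), with a median width of 1148 bp and a median offset of 352.5 bp. Cytosolic ribosomal proteins had them at 24 of 55 (43.6%, interval 31.4 to 56.7), while 15 more had only a wider peak, 10 a peak base within 3 kb and 6 none. Their 25 members were wide, with a median of 2451 bp, and shifted, with a median offset of 631 bp. All but *Rpl10* (−90.5 bp) lay downstream. *Rpl37a* had the widest, 2947 bp with its midpoint at 870 bp and 4 annotated starts inside. Aminoacyl-tRNA synthetases were at 14 of 18 and initiation factors and their regulators at 24 of 40, 7 of the latter having only a wider peak.

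Respiratory complex I genes were at 15 of 19 and mitochondrial import genes at 8 of 13. *Ndufa10* had a 2191-bp peak at 127 bp and *Tomm22*, an outer membrane import receptor, one of 2234 bp at 215.5 bp. Membrane traffic genes varied, from 17 of 23 for the COPI, COPII and exocyst coats and tethers to 17 of 34 Rab GTPases and 19 of 41 Vps and sorting nexin genes. *Sec16a*, which organises COPII exit sites, had a peak of 2973 bp centred 48 bp upstream.

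Families of chromatin genes lay on both sides of the share of all eligible genes. Zinc finger genes named *Zfp* were counted among them by symbol and made up 168 of the group's 216 eligible genes. Zinc finger genes named *Zfp* had members at 93 of 168, histone acetyltransferases and their subunits at 9 of 16 (56.2%), SWI/SNF and CHD remodelers at 9 of 21 (42.9%) and histone demethylases at 3 of 10 (30.0%). Many genes without a member still had a peak. Among remodelers, 2 had only a wider peak and 6 a peak base within 3 kb, and among demethylases 3 had the latter. No peak base within 3 kb was found at 58 *Zfp* genes, 1 acetyltransferase gene, 4 remodelers and 4 demethylases, against 3491 of all 7765 eligible genes. *Kat2b*, which encodes the acetyltransferase PCAF, had a 2901-bp peak at 475 bp, and *Zfp143* one of 2899 bp at 397 bp. *Hat1*, a type B histone acetyltransferase, had one of 1915 bp at 456 bp. Among the 7 sirtuins, all had a peak midpoint within 1 kb, but *Sirt2* and *Sirt7* alone were members. The *Sirt2* peak was 500 bp wide and lay 747.5 bp upstream, and the *Sirt7* peak was 711 bp wide at −41 bp. *Sirt6*, the target of the shRNA, had a peak of 1888 bp but a CpG ratio of 0.541, too low for a member.

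Developmental regulators almost lacked members. Of 119 eligible genes in 6 families, 5 (4.20%, interval 1.81 to 9.46) had one and 107 (89.9%) had no peak base within 3 kb. No member was found at 22 Hox genes, which allows a share of up to 13.6%, at 21 Pax, Lhx and Nkx genes (up to 14.3%) or at 9 Gata and Tbx genes (up to 33.3%). The 5 genes were *Foxk2* (2510 bp), *Foxd3* (442 bp, at 819.5 bp), *Sox12* (2239 bp), *Sox4* (567 bp) and *Fzd10*. *Foxd3* is itself expressed in pluripotent cells. Genes of excitable and structural tissues were low too, with 2 of 35 potassium channels, 1 of 15 calcium and sodium channels, 1 of 13 ionotropic glutamate and GABA receptors and 0 of 10 collagens (up to 30.0%). The widest potassium channel peak was at *Kcnk5*, 2344 bp. Solute carriers were at 38 of 135 (28.1%) and genes named *Tmem* at 43 of 99 (43.4%).

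Genes that mark embryonic stem cells had peaks, but none of this kind. Of 16 pluripotency genes, 14 had a peak within 1 kb of the 5′ end and 0 were members. Of the 16, 10 had a CpG ratio of at most 0.6. *Nanog*, with a peak of 2924 bp, failed by that criterion alone. The rest of the CpG-poor ones failed another criterion as well. *Pou5f1*, for example, had a peak of 6152 bp, and *Esrrb* and *Fgf4* had no peak within 1 kb. Among the CpG-rich ones, *Sox2*, *Klf2*, *Klf4* and *Tdgf1* had peaks of 9909, 5290, 5078 and 6689 bp, wider than the limit, and the peaks near *Klf5* and *Utf1* had midpoints more than 1 kb away.

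The side of the midpoint also ranged widely between functional groups. Cell cycle and DNA genes had 51 of 53 midpoints downstream (96.2%, interval 87.2 to 99.0), translation 76 of 83 (91.6%) and mitochondrial genes 50 of 57 (87.7%). Signalling genes had 25 of 46 (54.3%, interval 40.2 to 67.8). Among the 16 mitogen-activated protein kinase genes with a member, 6 were downstream and the median offset was −366 bp. The protein phosphatases, the other family of this group, had 19 of 30 midpoints downstream and a median offset of 168.75 bp. *Mapk3* (−472 bp) and *Map2k2* (−470 bp) lay upstream, while *Map2k1* (833 bp), a close paralog of *Map2k2*, lay downstream. *Map3k7* had a peak of 1885 bp at −463 bp and *Map2k3* one of 2701 bp at −384 bp. When the rule was applied anew to the nearest annotated start, the downstream shares were 84.1% for cell cycle and DNA, 83.7% for translation, 72.6% for mitochondrial genes and 53.8% for signalling, against 67.2% of all peaks then chosen. The groups were formed from symbols with earlier results known, and no test was made between them.

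**Figure D4:**
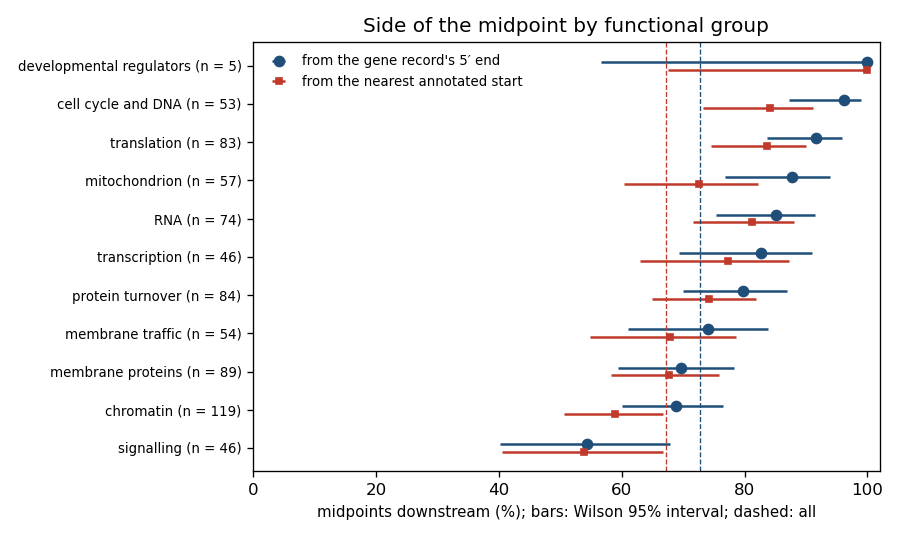
Percentage of member midpoints downstream of the 5′ end in 11 functional groups (n in brackets), measured from the gene record's 5′ end (blue circles) and, with the rule applied anew, from the nearest annotated start (red squares), with 95% Wilson intervals and dashed lines for all peaks. Signalling genes are lowest on both measures, at 54.3% and 53.8%, and cell cycle and DNA genes are at 96.2% and 84.1%. Genes named *Zfp* supply 96 of the 119 chromatin peaks measured from the gene record.

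Promoter sequence, which the rule used only through its CpG ratio, was compared between 3411 eligible genes with a member and 3491 with no peak base within 3 kb. The window ran from 250 bp upstream to 50 bp downstream, on both strands, for 10 motifs, none of which contains another. Mean GC content in it was 61.3 ± 8.62% (SD over 3411 promoters) and 63.7 ± 9.54% (3491 promoters). The ETS motif CCGGAAGT, capitalised at *Tbc1d2* above, occurred in 12.0% of member promoters and 3.15% of those without a peak (difference 8.87 points, interval 7.64 to 10.1; Fisher's exact test, two-sided, adjusted p = 2.27e-45). Of all 21938 protein-coding promoters, 4.70% held it.

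TCTCGCGA, the BANP site shown at *Gpatch3*, occurred in 3.37% and 0.888% (difference 2.48 points, interval 1.82 to 3.19; Fisher's exact test, two-sided, adjusted p = 1.8e-12), and in 1.38% of all promoters. The YY1 motif AAGATGGCG occurred in 3.99% and 1.35% (difference 2.64, interval 1.89 to 3.42; adjusted p = 2.15e-11 by the same exact test), and in 1.70% of all. NRF1 (GCGCATGC) was found in 7.56% and 4.55% (exact test, adjusted p = 3.67e-07) and CRE (TGACGTCA) in 4.84% and 2.49% (adjusted p = 4.26e-07). Over all promoters these shares were 3.71% and 2.43%. Each of these 5 motifs was more frequent at members in 5 of 5 classes of CpG ratio. The class above 1.0 was small, with 123 member promoters and 115 without a peak. Matches there numbered 10 and 8 for ETS, 5 and 4 for NRF1, and 5 and 3 for TCTCGCGA. For YY1 they were 6 and 2, and for CRE 7 and 3.

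Other motifs differed less. The E-box CACGTG, bound by USF and MYC factors, was at 12.0% and 9.91% (difference 2.05 points, interval 0.578 to 3.53; exact test, adjusted p = 0.0103), and in 7.75% of all promoters. The ZNF143 motif ACTACAATT was rare, at 0.733% and 0.344% (exact test, adjusted p = 0.0429), against 0.497% of all, and this difference lost its call under each of the 3 other settings tried. The GC box GGGGCGGGG, bound by SP and KLF factors, was the most common and was not more frequent at members, with 24.7% against 26.8% (difference −2.04 points, interval −4.10 to 0.0244; exact test, adjusted p = 0.0676) and 14.5% of all promoters. CCAATCAG, bound by NF-Y, was at 5.89% and 4.98% (exact test, adjusted p = 0.115), close to the share of all promoters. The TATA box TATAAA, searched on the sense strand 40 to 20 bp upstream, was at 0.821% and 1.06% (exact test, adjusted p = 0.344), against 2.42% of all promoters. The exact test was Fisher's, two-sided, throughout. A match is a match of letters, not a bound site.

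**Figure D5:**
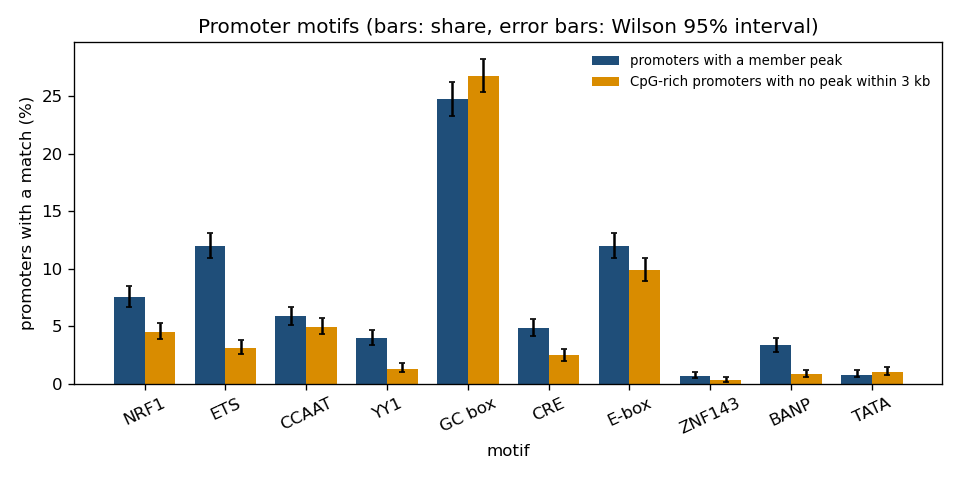
Percentage of promoters that hold each of 10 motifs from 250 bp upstream to 50 bp downstream of the 5′ end (TATA 40 to 20 bp upstream), for 3411 promoters with a member (blue) and 3491 CpG-rich promoters with no peak within 3 kb (orange), with 95% Wilson intervals. The ETS bars, 12.0% and 3.15%, are the farthest apart, while the GC box is the tallest pair at 24.7% and 26.8%.

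Peaks at motif-bearing promoters varied more in width than in side. The 116 members with TCTCGCGA had a median width of 1755.5 bp, the 165 with CRE 1459 bp and the 410 with ETS 1316 bp. The 847 with a GC box had a median of 978 bp and the 28 with a TATA box one of 786.5 bp, against 1117 bp for all members. The share downstream lay between 69.2% (GC box) and 76.0% (ZNF143) for all 10 motifs, around the 72.7% of all members. A promoter can hold several motifs, so these groups overlap, and no test was made between them.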

How the data were processed

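V6.5 mESCs were infected with Scramble or *Sirt6* shRNA lentivirus, and each library was grouped by its title. The authors aligned reads to mm10 with Bowtie, keeping uniquely placed reads, removed duplicates, called peaks with MACS2, filtered out blacklisted regions and merged peaks over libraries. The deposited file gives start and end positions alone; its score column, per the file itself, is 0 throughout and was not used. Read totals and peak heights are not analysed here, so no value is weighted by sequencing depth.

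Positions are printed counted from 1. Genes came from GENCODE M21, and sequence from RefSeq GRCm38.p6. Midpoints were set against the 5′ end of each of 21938 protein-coding gene records, and the width, distance and CpG criteria were applied in that order. Offsets are signed along the gene's strand. Families were formed from gene symbols. Named genes are those with the widest member peak of a family, the extremes of width and offset, those next to a threshold, genes with 2 members, sirtuins and pluripotency genes. *Psmb5*, *Ndc80*, *Brca2*, *Fanca*, *Hat1*, *Rpl10*, *Foxd3*, *Sox4*, *Mapk3*, *Map2k1*, *Map2k2* and *Map3k7* were named after their values were seen. Kinase, binding-protein and pseudogene symbols were dropped from the ribosomal, proteasome and channel families because of their function, after counts were seen. Sequences overlapping an annotated exon were passed over.

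Shares were compared by Fisher's exact test, two-sided, with Benjamini-Hochberg adjustment over 15 tests (that of side by width among them, not reported as a test since width chose the members), and carry 95% Wilson or, for differences, Newcombe intervals (Python 3.11.15, scipy 1.17.1, pandas 2.3.3). The limit for a count of 0 is 3 counts of the total. Scripts were tested on simulated data. Members, families and tests were chosen with earlier results of these data known. Alternatives were other starts, widths, distances, CpG thresholds and windows.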

Additional observations from a re-analysis of the deposited data

How the results depend on the processing

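Across 63 alternatives of the 14 tested differences, 51 left both the direction and the call at 0.05 as they were. The 14 include that between wide and narrow members, which is not reported as a test above, so the count is not support for it. Calls in this section rest on unadjusted p-values of Fisher's exact test, while the main calls used adjusted ones. With the nearest of all transcript starts, the downstream difference between CpG-rich and CpG-poor promoters turned to 0.0819 points and that between wide and narrow members shrank to 1.58. Genes with 1 annotated start, a choice made after seeing the data that leaves 278 members and 87 CpG-poor peaks, gave −7.51 for CpG-rich against CpG-poor, −2.89 for divergent starts and −2.91 for neighbours within 10 kb, none past the threshold. Long non-coding RNAs alone and genes with no other 5′ end within 2 kb were also chosen after seeing the data and changed no call. For motifs, the TATA difference turned to 0.260 at CpG ratios above 0.75. ZNF143 was at 0.269 with 100 bp upstream, 0.157 at CpG ratios above 0.75 and 0.346 against promoters with no peak base within 1 kb, below the threshold in each. Without adjustment, CCAAT passed it with 100 bp upstream (1.02), as did the GC box at CpG ratios above 0.75 (−4.26) and against no peak base within 1 kb (−2.07). The cause was not tested. The share of eligible genes with a member moved to 45.9% at CpG ratios above 0.75, 26.4% within 500 bp and 48.4% without width limits. No paired analysis was possible because values per library are not analysed here. Without heights or read counts, a weak and a strong peak count alike, and a gene listed without a peak may carry the mark below the authors' threshold.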
